A study of Callithrix jacchus and Rattus norvegicus and Loxodonta africana with 31 samples.

Results

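The genes described here are 8 that are widely used to mark astrocytes: Gfap, Slc1a2, Slc1a3, Aldh1l1, S100b, Aldoc, Gjb6 and Mlc1. They were found in the tables by name. In the rat table all 8 were found among 20486 genes. In the marmoset table the name column held 3 of the 8 (GFAP, SLC1A2 and SLC1A3) among 19681 genes. A further 4 (ALDH1L1, S100B, ALDOC and MLC1), which that table lists under provisional names, were matched by Ensembl ID, so 7 were measured. Marmoset GJB6 was not matched and is not analysed here.

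The study sequenced polyadenylated RNA from 31 samples of 4 mammals. Its purpose, per the series' own text, was the sequence and expression of genes on the Y chromosome, and the astrocyte genes described here are part of the whole-transcriptome tables that accompany it. From the common marmoset (Callithrix jacchus), a New World monkey, there were 14 samples, and from the rat (Rattus norvegicus) 12. Each species' table has 10 columns: brain, heart, kidney and liver of a female and of a male, the ovary of the female and the testis of a male. No treatment or engineered allele is named for any group, and the labels do not name a strain or an age. They list a frontal cortex and a cerebellum sample for each sex, 4 samples per species, but each table has 1 brain column per sex. Whether a brain column holds cortex, cerebellum or both is therefore not known. Likewise the marmoset testis column could stand for any of 3 testis samples of 2 males. Every comparison below rests on 1 female and 1 male animal per tissue. The main tests take out the mean difference between the female and male columns. Their p-values therefore measure only the spread left between columns, not the full spread between animals.

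Astrocytes are the glial cells that tile the brain, clear transmitter from synapses, buffer potassium and wrap blood vessels with their endfeet. The genes fall into roles that reflect this: an intermediate filament (Gfap), glutamate uptake carriers (Slc1a2 and Slc1a3), a gap junction channel (Gjb6), an endfoot membrane protein (Mlc1), a calcium-binding protein (S100b) and metabolic enzymes (Aldoc and Aldh1l1). Several are also known outside the brain, for example Aldh1l1 as a folate enzyme of the liver.

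The tissue names were checked against marker genes. The summed FPKM of the neuron markers (8 of 10 matched in the marmoset, 10 of 10 in the rat) was 1084 and 1044 in the female and male marmoset brain, against at most 19.4 in any other column. In the rat the sums were 1628 and 1985, against at most 21.3. Cardiomyocyte, kidney tubule and hepatocyte markers were likewise highest in both columns of heart, kidney and liver, respectively, in both species. Markers of cerebellar neurons were present in every brain column, with sums of 240 and 288 in the marmoset and 117 and 702 in the rat. The rat brain columns also differed in oligodendrocyte markers, at 3324 in the female and 544 in the male, and in Ttr, a choroid plexus and liver transcript, at 403 and 7.27 FPKM. The marmoset oligodendrocyte sums, from 2 of 7 markers, were 271 and 265. The part of these differences in the values below was not tested. Total FPKM per column ran from 210712 to 1686921 in the marmoset and from 457975 to 3551202 in the rat, and the read depth is unknown.

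Of the 8 astrocyte genes, all but Aldh1l1 were higher in brain than in the mean of heart, kidney and liver, in each species where they were measured. Against liver alone, rat Mlc1 and marmoset S100B did not reach the threshold given below. FPKM is a fragment count scaled to transcript length and to the mapped fragments of the library. Brain was set against the mean of heart, kidney and liver on log2(FPKM + 1) with limma, and a gene passed at an adjusted p under 0.05 and a log2 difference of at least 1. Genes were tested only if at least 2 of the 8 columns reached 1 FPKM. In the marmoset 6 of 7 passed as higher, where 17.0% of all 15100 genes tested did, and in the rat 7 of 8, where 17.6% of 14560 did. These counts include genes that reached that filter only with their brain columns and so had to differ: SLC1A2 in the marmoset and Gfap and Gjb6 in the rat. Their differences are given as descriptions. Of the other 6 genes in each species, 5 passed as higher. Among all genes admitted without the brain columns, 11.5% were higher in the marmoset and 10.4% in the rat. Aldh1l1 passed as lower in both species, where 28.8% of the marmoset and 27.1% of the rat genes tested did. The median log2 difference of the 6 genes admitted without the brain columns was 4.75 in the marmoset and 5.02 in the rat, beside medians over all genes so admitted of -0.45 and -0.41. Over all genes tested the medians were -0.34 and -0.28. With columns centred on their median gene, the all-gene medians moved to 0.04 and 0.11. Genes called higher then made up 52.9% of all calls in the marmoset and 55.9% in the rat, against 37.1% and 39.4% without centring. All the astrocyte genes kept their call under centring. These are bulk tissues, so more cells of a type and more RNA per cell cannot be told apart.

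Both brain columns lay above all 6 heart, kidney and liver columns for 6 of 7 marmoset genes, against 17.9% of all genes tested, and for 6 of 8 rat genes, against 19.0%. The exceptions were Aldh1l1 in both species and Mlc1 in the rat. These counts too include the genes admitted by their brain columns. The same genes also lay above ovary and testis. For both brain columns above all 8 other columns, the shares of all genes tested were 13.2% in the marmoset and 14.0% in the rat.

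**Figure D1:**
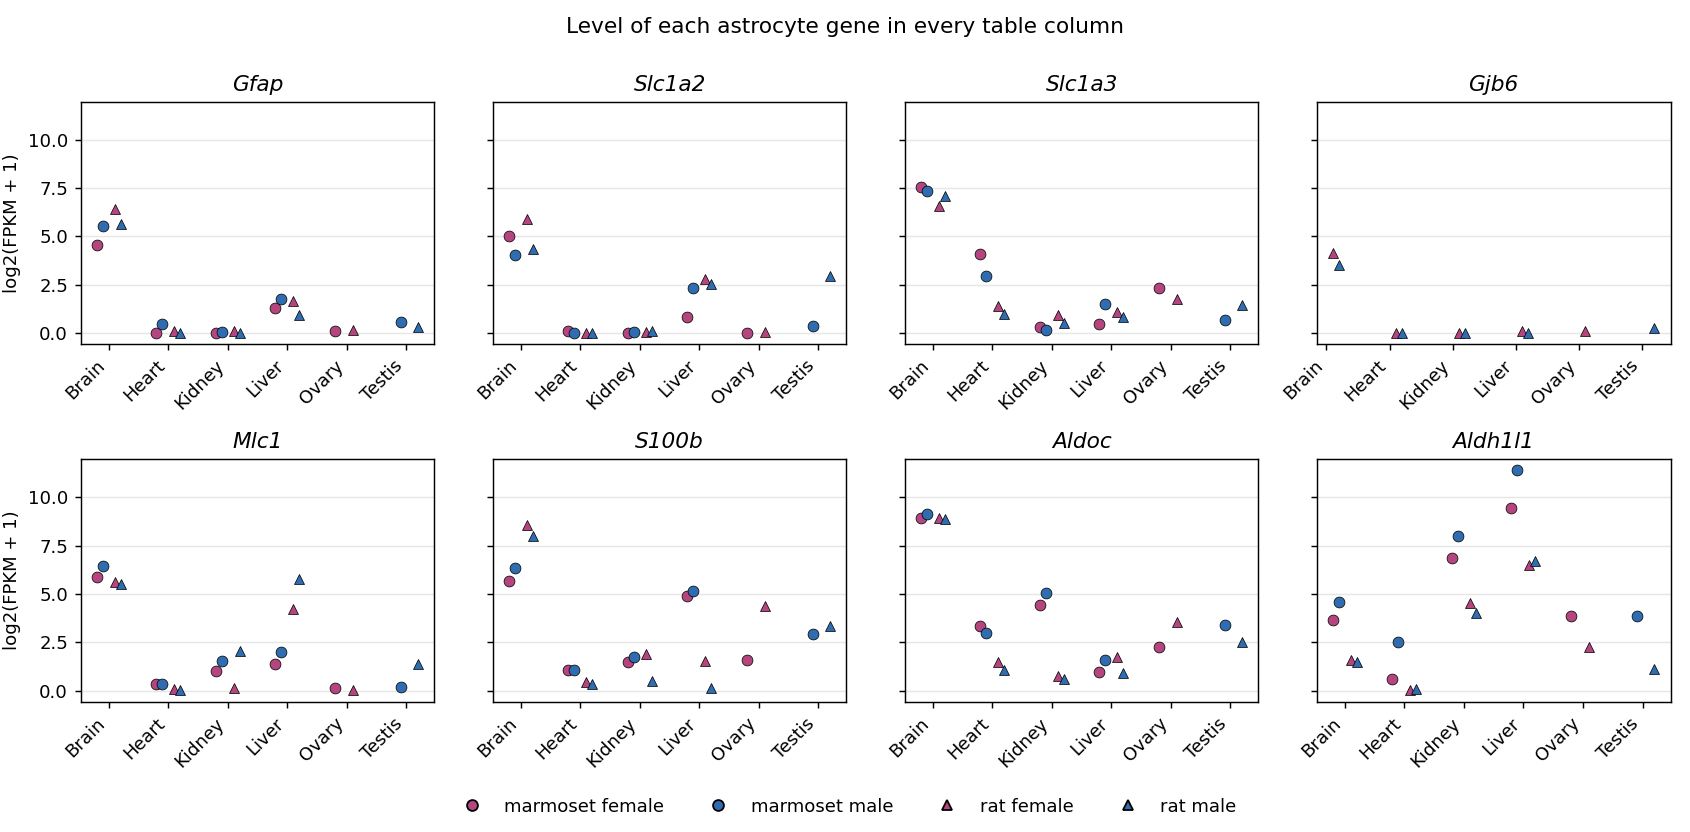
Each panel plots 1 gene as log2(FPKM + 1) on the vertical axis in every tissue column, with circles for marmoset, triangles for rat, and colours for the female and male columns. Brain points are the highest for most genes, Aldh1l1 peaks in liver, and rat Mlc1 (17.7 and 54.7 FPKM) and marmoset S100B (29.3 and 34.8 FPKM) also have high liver points.

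Gfap encodes glial fibrillary acidic protein, the main intermediate filament of mature astrocytes. Marmoset GFAP (chromosome 5 in the table) was at 22.2 FPKM in the female brain and 45.1 in the male brain. Its values were 0 and 0.406 in female and male heart, 0 and 0.0347 in kidney, 1.46 and 2.35 in liver, 0.0628 in ovary and 0.509 in testis. The brain columns did not overlap any other, and liver was the next tissue in order. Rat Gfap (chromosome 10) was at 83.9 and 48.9 FPKM in female and male brain. It was at 0.0674 and 0.0226 in heart, 0.0868 and 0.0173 in kidney, 2.20 and 0.884 in liver, 0.116 in ovary and 0.230 in testis. Again brain stood apart and liver came next, but the order of the sexes in brain was opposite to that in the marmoset. The brain difference was 4.43 ± 0.22 (SE, n = 2 columns per tissue) on the log2 scale in the marmoset and 5.55 ± 0.21 in the rat, with limma adjusted p of 1.34e-05 and 6.16e-06, the rat value being a description, since rat Gfap reached the filter only with its brain columns. Liver also exceeded the mean of heart and kidney, by 1.38 ± 0.23 in the marmoset (adjusted p = 0.00397) and 1.23 ± 0.23 in the rat (adjusted p = 0.00496). The rat liver call for Gfap was lost without the female liver column, at 1.00 and an adjusted p of 0.0598. Brain GFAP was 17.7 times the liver mean in the marmoset and 43.1 times in the rat.

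Other intermediate filament genes differed in direction. Here and for the lists below, counts and medians are of genes admitted without the brain columns, of which 11.5% were higher and 31.2% lower among all marmoset genes and 10.4% and 30.0% among all rat genes. In the marmoset 1 of 6 filament genes was higher in brain and 4 were lower (median -1.57), and in the rat none of 8 was higher and 4 were lower (median -0.97). The neurofilament genes Nefl, Nefm and Nefh and alpha-internexin, Ina, all filaments of neurons, had positive differences in both species. All 4 in the rat, and NEFM, NEFH and INA in the marmoset, reached the filter only with their brain columns, so their differences are descriptions. The differences of largest size in the marmoset were INA at 5.75 ± 0.16, NEFL at 4.31 ± 0.21 and the epithelial keratin KRT18 at -3.86 ± 0.29. In the rat they were Nefl at 4.55 ± 0.46, Ina at 4.53 ± 0.15 and Nefh at 3.69 ± 0.50. INA was the only listed filament above GFAP in marmoset brain, at 58.7 and 58.0 FPKM, and none was above Gfap in rat brain. Vimentin, the filament of immature glia and mesenchyme, was below GFAP in every brain column and above it in every heart, kidney and liver column. The GFAP to VIM ratio in brain was 3.00 and 2.37 in the female and male marmoset and 4.16 and 1.88 in the rat.

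Slc1a3 (GLAST, EAAT1) and Slc1a2 (GLT-1, EAAT2) are the astrocytic carriers that remove glutamate from the synaptic cleft. Marmoset SLC1A3 (chromosome 2) reached 187 and 160 FPKM in female and male brain. It was at 16.2 and 6.71 in heart, 0.269 and 0.106 in kidney, 0.384 and 1.80 in liver, 4.10 in ovary and 0.615 in testis. Heart ranked second, well below brain and above every kidney and liver column. Rat Slc1a3 (chromosome 2) was at 92.5 and 133 FPKM in brain. Its other values were 1.70 and 1.01 in heart, 0.890 and 0.450 in kidney, 1.16 and 0.763 in liver, 2.44 in ovary and 1.78 in testis. Outside the brain the rat levels were all low, and the ranges of heart, kidney and liver overlapped or lay close together. The brain differences were almost the same in size, 5.86 ± 0.39 in the marmoset and 5.84 ± 0.23 in the rat (limma adjusted p = 4.02e-05 and 6.67e-06), in separately normalised tables that were not tested against each other.

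Marmoset heart exceeded the mean of kidney and liver for SLC1A3 by 2.91 ± 0.41 (limma adjusted p = 0.00172), where 13.0% of all genes tested passed as higher. The corresponding rat difference was 0.37 ± 0.25 and did not pass (adjusted p = 0.258). Summed endothelial markers, from 3 of 6 genes matched, were 65.8 and 69.9 FPKM in marmoset heart, and from 6 of 6 genes 145 and 165 in rat heart. Summed Schwann cell markers were 48.3 and 57.3 in marmoset heart and 48.6 and 46.8 in rat heart. Their part in the heart level of SLC1A3 was not tested.

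Marmoset SLC1A2 (chromosome 11) was at 31.5 and 15.4 FPKM in female and male brain. It was at 0.0836 and 0 in heart, 0 and 0.0248 in kidney, 0.798 and 4.08 in liver, 0.0174 in ovary and 0.275 in testis. Rat Slc1a2 (chromosome 3) was at 59.2 and 19.1 FPKM in brain. It was listed at 0 in both heart columns and was at 0.0358 and 0.0678 in kidney, 6.04 and 4.80 in liver, 0.0296 in ovary and 6.83 in testis. In both species the female brain column was the higher one, liver was the next somatic tissue, and the lower brain column still lay above every other column. The brain difference was 3.97 ± 0.43 in the marmoset, a description since SLC1A2 reached the filter there only with its brain columns, and 4.20 ± 0.33 in the rat (limma adjusted p = 7.86e-05).

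In liver, Slc1a2 exceeded the mean of heart and kidney by 2.64 ± 0.35 in the rat (limma adjusted p = 0.00127). The marmoset liver difference of 1.56 ± 0.46 passed narrowly (adjusted p = 0.0336). That SLC1A2 call was lost without the animal as a block (adjusted p = 0.0576), with no filter (0.0746), and without any 1 of 5 columns: male liver, where it was 0.63 (0.262), and the heart and kidney columns (0.0672 to 0.0825). Among brain, heart, kidney and liver, liver was the only tissue in which SLC1A2 was above SLC1A3, in both species.

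The ratio of SLC1A3 to SLC1A2 in brain was 5.94 and 10.4 in the female and male marmoset. In the rat it was 1.56 in the female and 6.96 in the male. In liver the ratio was below 1 in every column, at 0.481 and 0.442 in the marmoset and 0.192 and 0.159 in the rat. The rat male brain column, with the higher ratio, is also the one with the higher cerebellar neuron sum (702 against 117), and the part of that in the ratio was not tested.

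The other SLC1 genes carry glutamate or neutral amino acids in neurons and epithelia. In the marmoset 2 of 4 were higher in brain and 2 lower (median 0.01), and in the rat 1 of 3 was higher and 1 lower (median 0.98). Slc1a6 (EAAT4), the carrier of cerebellar Purkinje cells, reached the filter only with its brain columns in both species, and its differences of 4.68 ± 0.17 in the marmoset and 3.61 ± 0.39 in the rat are descriptions. Its brain levels were 20.7 and 29.7 FPKM in the marmoset and 5.52 and 22.9 in the rat. In marmoset brain SLC1A6 was above SLC1A2 in mean level, while no SLC1 gene was above Slc1a3 in brain in either species. The neutral amino acid carriers SLC1A4 (2.47 ± 0.21, marmoset) and SLC1A5 (-2.27 ± 0.26 in the marmoset, -1.14 ± 0.26 in the rat) and the neuronal and kidney carrier Slc1a1 (1.20 ± 0.20, rat) followed in size. In kidney 4 of 5 marmoset and 3 of 5 rat SLC1 genes had a higher mean FPKM than Slc1a3. Slc1a3 was below 1 FPKM in every kidney column, and the share of all genes above it there was not counted.

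Glutamate that astrocytes take up is converted to glutamine by glutamine synthetase, Glul. GLUL was at 402 and 422 FPKM in marmoset brain and 394 and 243 in rat brain. It was higher in brain by 1.34 ± 0.22 in the marmoset (limma adjusted p = 0.00218) and 1.03 ± 0.27 in the rat (adjusted p = 0.0153). Of the listed genes of glutamate and glutamine handling, 3 of 8 marmoset genes were higher and 3 lower (median -0.64), and 3 of 9 rat genes were higher and 3 lower (median 0.06). The glutamine carrier SLC38A3 was lower, at -2.58 ± 0.18 and -2.65 ± 0.25. The vesicular glutamate transporters of neurons reached the filter only with their brain columns, and their values are descriptions: 6.72 ± 0.18 and 7.01 ± 0.41 for SLC17A7 in marmoset and rat, and 2.86 ± 0.13 for marmoset SLC17A6. SLC38A3 reached 430 and 672 FPKM in marmoset liver and 809 and 415 in rat liver. In mean brain level 8 of the 10 marmoset genes and 5 of the 12 rat genes measured were above SLC1A2.

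Gjb6 encodes connexin 30, a gap junction channel that couples astrocytes to one another. Rat Gjb6 (chromosome 15) was at 17.0 and 10.5 FPKM in female and male brain. It was listed at 0 in both heart columns, both kidney columns and the male liver, and was at 0.0898 in the female liver, 0.0883 in ovary and 0.188 in testis. Among the astrocyte genes it had the lowest levels outside the brain, and its highest value there was the 0.188 FPKM of testis. It passed the filter on low values through its brain columns alone, so its difference of 3.83 ± 0.17 (limma adjusted p = 8.69e-06) is given as a description. With either brain column left out it was not tested. Gja1 (connexin 43), the other main connexin of astrocytes, was at 56.1 and 39.6 FPKM in rat brain, so that the Gjb6 to Gja1 ratio was 0.302 in the female and 0.266 in the male. Gja1 was higher in heart, at 290 and 254 FPKM, and in ovary, at 165, than in brain. Over the 3 tissues it still passed as higher in brain, by 1.21 ± 0.22.

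Of the other connexins, 1 of 7 in the rat, Gja1, was higher in brain and 1 lower (median -0.65). The one lower was Gja4 (-2.06 ± 0.22), a vessel connexin. Gjc3, a connexin of myelinating glia, reached the filter only with its brain columns, and its difference of 1.43 ± 0.40 is a description. Rat Gjc3 was at 7.06 FPKM in the female and 1.23 in the male brain, the same direction as the oligodendrocyte marker sums of 3324 and 544, whose part was not tested. In the marmoset none of 3 connexins was called higher and GJA4 was lower (-3.54 ± 0.33). In rat brain only Gja1, of the 13 other connexins listed, had a higher mean FPKM than Gjb6. In heart 11 of the 13 were above Gjb6, in kidney 12 and in liver 8. Gjb6 was listed at 0 in every heart and kidney column, so any connexin above 0 there counts as above it. It was near 0 in liver too, and nothing is read from these 3 counts about the other connexins.

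Mlc1 encodes a membrane protein of perivascular astrocyte endfeet whose loss causes a leukoencephalopathy with subcortical cysts. Marmoset MLC1 (chromosome 11) was at 57.7 and 87.9 FPKM in female and male brain. It was at 0.281 and 0.275 in heart, 1.00 and 1.93 in kidney, 1.64 and 3.00 in liver, 0.125 in ovary and 0.154 in testis. The brain columns stood far above all others. Rat Mlc1 (chromosome 7) was at 48.6 and 45.1 FPKM in brain. It was at 0.0517 and 0.0165 in heart, 0.0890 and 3.18 in kidney, 17.7 and 54.7 in liver, 0.0286 in ovary and 1.59 in testis. Here the liver range enclosed the brain range, with the male liver the highest column of all. The brain difference over the 3 tissues was 5.06 ± 0.20 in the marmoset and 3.53 ± 0.45 in the rat (limma adjusted p = 7.93e-06 and 6.02e-04). Against liver alone it was 4.47 ± 0.25 in the marmoset (adjusted p = 1.81e-05) and 0.57 ± 0.55 in the rat, which did not pass (adjusted p = 0.401). Rat liver exceeded the mean of heart and kidney by 4.44 ± 0.47 (adjusted p = 4.65e-04). In the marmoset the same difference was 0.89 ± 0.22 and missed the fold threshold (adjusted p = 0.0175). Neuron markers summed to 11.3 and 0.423 FPKM in female and male rat liver, and their part in the liver level of Mlc1 was not tested.

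The partners of Mlc1 at the endfoot include the water channel Aqp4, the adhesion protein Hepacam (GlialCAM) and the potassium channel Kcnj10. In the marmoset 3 of 7 partners were higher in brain and 2 lower (median 0.59). In the rat 4 of 9 table entries were higher and 3 lower (median 0.68, with Clcn2 listed under 2 entries). Among those higher were KCNJ10 (3.29 ± 0.20) in the marmoset and Aqp4 (5.45 ± 0.18) and Gprc5b (3.53 ± 0.23) in the rat. Marmoset AQP4 (5.25 ± 0.16) and HEPACAM (3.98 ± 0.15) and rat Hepacam (2.54 ± 0.21) reached the filter only with their brain columns, and their differences are descriptions. Hepacam was listed at 0 in both rat liver columns, and Aqp4 was at 0.524 and 0.0107 there, and no listed partner had a higher mean level than Mlc1 in rat liver. In brain, ATP1B1 and GPRC5B were above MLC1 in the marmoset and Atp1b1 and Aqp4 above Mlc1 in the rat. Dag1 (dystroglycan) was lower in brain in both species, at -1.18 ± 0.26 and -1.32 ± 0.24, as was the cation channel Trpv4, at -2.13 ± 0.24 and -1.32 ± 0.22.

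S100b encodes a small calcium-binding protein of astrocytes, also present in other glia and a few peripheral cells. Marmoset S100B (chromosome 21) was at 50.1 and 81.6 FPKM in female and male brain. It was at 1.07 and 1.09 in heart, 1.80 and 2.39 in kidney, 29.3 and 34.8 in liver, 1.98 in ovary and 6.60 in testis. Liver came close below brain without overlap. Rat S100b (chromosome 20) was at 373 and 258 FPKM in brain. It was at 0.388 and 0.279 in heart, 2.75 and 0.440 in kidney, 1.88 and 0.126 in liver, 19.8 in ovary and 9.37 in testis. In the rat the liver was as low as the heart and kidney, and the ovary ranked second. The brain difference was 3.45 ± 0.20 in the marmoset and 7.46 ± 0.29 in the rat (limma adjusted p = 2.41e-05 and 6.20e-06).

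Against liver alone, marmoset S100B differed by 0.98 ± 0.24 (limma adjusted p = 0.0115), just short of the fold threshold. It passed with median-centred columns, at 1.47, without the female brain column, at 1.24, and without the female liver column, at 1.02. The rat difference against liver was 7.43 ± 0.36 (adjusted p = 9.18e-06). Marmoset liver exceeded the mean of heart and kidney by 3.70 ± 0.21 (adjusted p = 5.03e-05), while the rat value was 0.03 ± 0.31 (adjusted p = 0.951). Whether S100B and the rat gene differ between the species in this contrast was not tested. Of the other S100 genes, 3 of 4 in the marmoset were lower in brain (median -2.69) and 4 of 11 in the rat (median -0.97), and none was called higher. The rat share is near that of all genes, 30.0% lower, and with 4 marmoset genes nothing is read from these counts about the family. The lowest were S100A8 (-3.33 ± 0.43), S100A6 (-3.00 ± 0.28) and S100A4 (-2.37 ± 0.40) in the marmoset and S100a6 (-3.21 ± 0.34), S100a11 (-3.10 ± 0.38) and S100a4 (-2.44 ± 0.24) in the rat, genes of myeloid, epithelial and connective tissue cells. No S100 gene measured was above S100b in brain, while 4 of 5 in marmoset heart and 12 of 14 in rat heart were. S100b itself was low in heart in both species. The share of all genes above it there was not counted, so nothing is read from the heart counts about the other S100 genes.

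Aldoc encodes aldolase C, the brain form of the glycolytic enzyme that cleaves fructose bisphosphate, found in astrocytes and in bands of Purkinje cells. It was the most abundant of the astrocyte genes in brain in both species. Marmoset ALDOC (chromosome 5) was at 491 and 557 FPKM in female and male brain, where its mean ranked 19th among all genes. It was at 9.06 and 6.87 in heart, 20.4 and 32.6 in kidney, 0.962 and 2.05 in liver, 3.88 in ovary and 9.44 in testis. Kidney ranked second and liver last. Rat Aldoc (chromosome 10) was at 495 and 465 FPKM in brain, where its mean ranked 36th. It was at 1.84 and 1.07 in heart, 0.677 and 0.542 in kidney, 2.38 and 0.862 in liver, 10.8 in ovary and 4.73 in testis. In the rat, kidney was the lowest tissue and the ovary ranked second. The brain difference was 5.97 ± 0.25 in the marmoset and 7.81 ± 0.21 in the rat (limma adjusted p = 8.03e-06 and 5.35e-06).

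Marmoset kidney exceeded the mean of heart and liver for ALDOC by 2.52 ± 0.26 (limma adjusted p = 7.29e-04), where 11.9% of all genes tested passed as higher. In the rat the same difference was -0.62 ± 0.22 and did not pass (adjusted p = 0.0783). The difference between the species was not tested.

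Aldoa, the muscle form of aldolase, peaked in another tissue than Aldoc. It was highest in heart, at 468 and 873 FPKM in the marmoset and 1012 and 801 in the rat. In brain it was at 162 and 170 FPKM in the marmoset and 254 and 284 in the rat, below Aldoc in every brain column and above it in every heart, kidney and liver column. Its brain difference did not pass the threshold (-0.28 ± 0.24 and 0.70 ± 0.26, adjusted p = 0.336 and 0.0544). The ratio of ALDOC to ALDOA in brain was 3.03 and 3.28 in the marmoset and 1.95 and 1.64 in the rat.

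**Figure D2:**
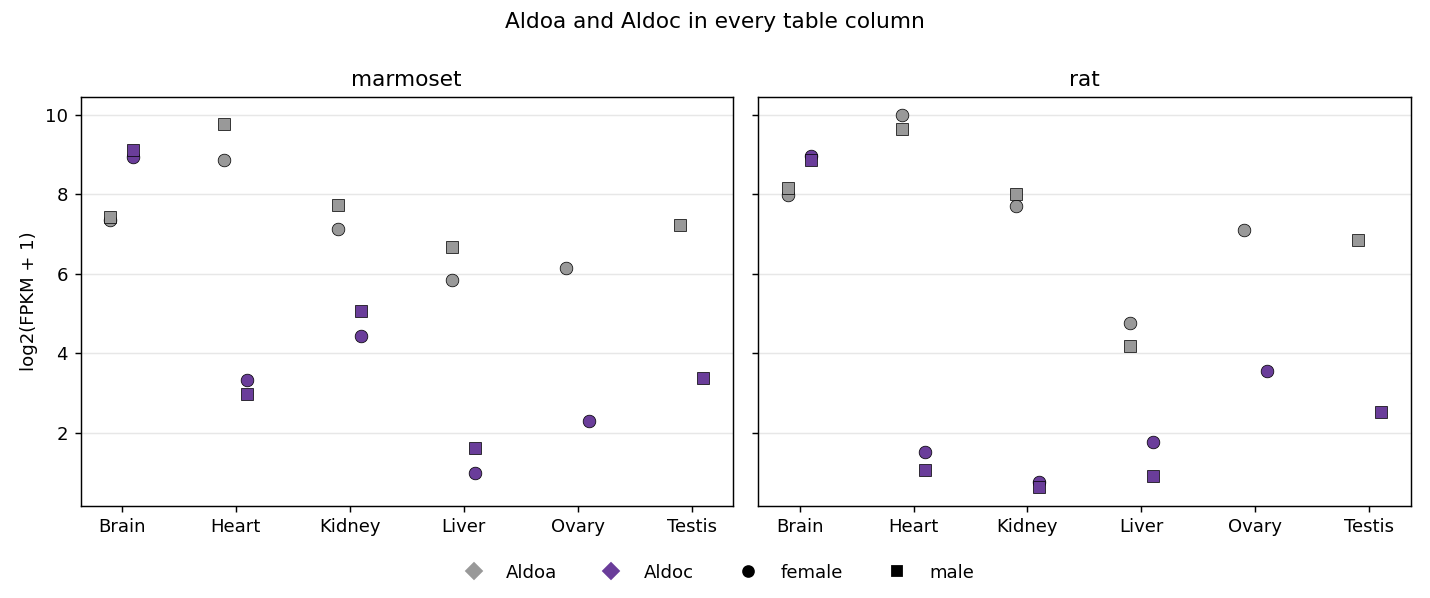
The panels plot log2(FPKM + 1) of Aldoa and Aldoc on the vertical axis for each tissue, marmoset on the left and rat on the right, with circles for female and squares for male columns. Aldoc lies above Aldoa only in brain (491 and 557 FPKM in the marmoset, 495 and 465 in the rat), and Aldoa is highest in heart.

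Among the listed glycolysis genes, 4 of 11 were higher and 2 lower in marmoset brain (median 0.61). In the rat 5 of 13 were higher and 4 lower (median 0.70). Neuronal enolase, ENO2, was higher by 7.17 ± 0.23 in the marmoset. Its 2 rat entries reached the filter only with their brain columns, and their differences of 7.17 ± 0.24 and 6.00 ± 0.17 are descriptions. PFKP, a phosphofructokinase, followed in the marmoset at 2.39 ± 0.54. None of these genes was above Aldoc in brain in either species, while 8 of 11 in marmoset heart and 12 of 15 in rat heart were. Aldoc itself was far lower in heart than in brain, and the share of all genes above it there was not counted.

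Aldh1l1 encodes 10-formyltetrahydrofolate dehydrogenase, a cytosolic folate enzyme used as a pan-astrocyte marker and abundant in liver. Marmoset ALDH1L1 (chromosome 15) was at 11.6 and 23.1 FPKM in female and male brain. It was at 0.507 and 4.72 in heart, 116 and 251 in kidney, 698 and 2698 in liver, 13.5 in ovary and 13.7 in testis. Rat Aldh1l1 (chromosome 4) was at 1.99 and 1.83 FPKM in brain. It was at 0.0239 and 0.0656 in heart, 22.0 and 15.2 in kidney, 90.7 and 104 in liver, 3.82 in ovary and 1.18 in testis. The order liver, kidney, brain, heart was the same in both species, with no overlap between these 4 tissues, and the rat brain columns lay below the ovary. In marmoset brain the ovary and testis values fell within the range of the brain columns.

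Brain was below the mean of heart, kidney and liver for ALDH1L1 by the log2 difference of -2.34 ± 0.27 in the marmoset (limma adjusted p = 4.14e-04) and -2.11 ± 0.20 in the rat (adjusted p = 1.63e-04). Against liver it was -6.30 ± 0.33 and -5.08 ± 0.24, and against kidney -3.30 ± 0.33 and -2.73 ± 0.24. Against heart it was higher, by 2.57 ± 0.33 (adjusted p = 9.48e-04) and 1.48 ± 0.24 (adjusted p = 0.00240). The marmoset brain to heart call for ALDH1L1 was lost without the animal as a block (adjusted p = 0.0823). The male marmoset heart, with the higher ALDH1L1 of the heart columns, also had more of the hepatocyte transcript HPX, 12.4 FPKM against 0.209 in the female heart and 5495 and 13382 in liver. The part of this in the heart value was not tested.

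Other folate enzymes were mostly lower in brain. In the marmoset 7 of 12 table entries were lower in brain and none was higher (median -2.13), and in the rat 7 of 9 were lower and none was higher (median -2.32), beside 31.2% and 30.0% lower among all genes so admitted. The largest were FTCD (-4.58 ± 0.48), SHMT1 (-4.16 ± 0.23) and MTHFS (-3.21 ± 0.20) in the marmoset and Shmt1 (-4.31 ± 0.23), Ftcd (-3.14 ± 0.36) and Shmt2 (-2.48 ± 0.30) in the rat. Mthfd1l, a mitochondrial enzyme of formate synthesis, was at 3.03 and 5.31 FPKM in rat brain. It reached the filter there only with its brain columns (2.08 ± 0.17, a description), and it was not called in the marmoset (0.09 ± 0.31). No listed folate gene was above ALDH1L1 in mean level in marmoset brain, kidney or liver. In rat brain 4 of 12 were (Shmt2, Mthfd1l, Tyms and Mthfs). Aldh1l2, the mitochondrial counterpart of Aldh1l1, was at 1.20 and 0.876 FPKM in marmoset brain and 0.0998 and 0.0318 in rat brain.

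Set against single tissues, all 7 marmoset genes were higher in brain than in heart and all 8 rat genes were. Of all genes tested, 17.8% were higher there in the marmoset and 18.5% in the rat. Against kidney, 6 of 7 marmoset and 7 of 8 rat genes were higher and Aldh1l1 was lower. The shares of all genes tested were 16.8% higher and 27.1% lower in the marmoset and 17.3% and 23.1% in the rat. Against liver, 5 of 7 marmoset and 6 of 8 rat genes were higher and Aldh1l1 was lower, where 21.4% were higher and 31.7% lower in the marmoset and 22.7% and 28.5% in the rat. The genes that missed the call against liver were S100B in the marmoset and Mlc1 in the rat. These comparisons share the brain columns, and their counts include the genes admitted by those columns.

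**Figure D3:**
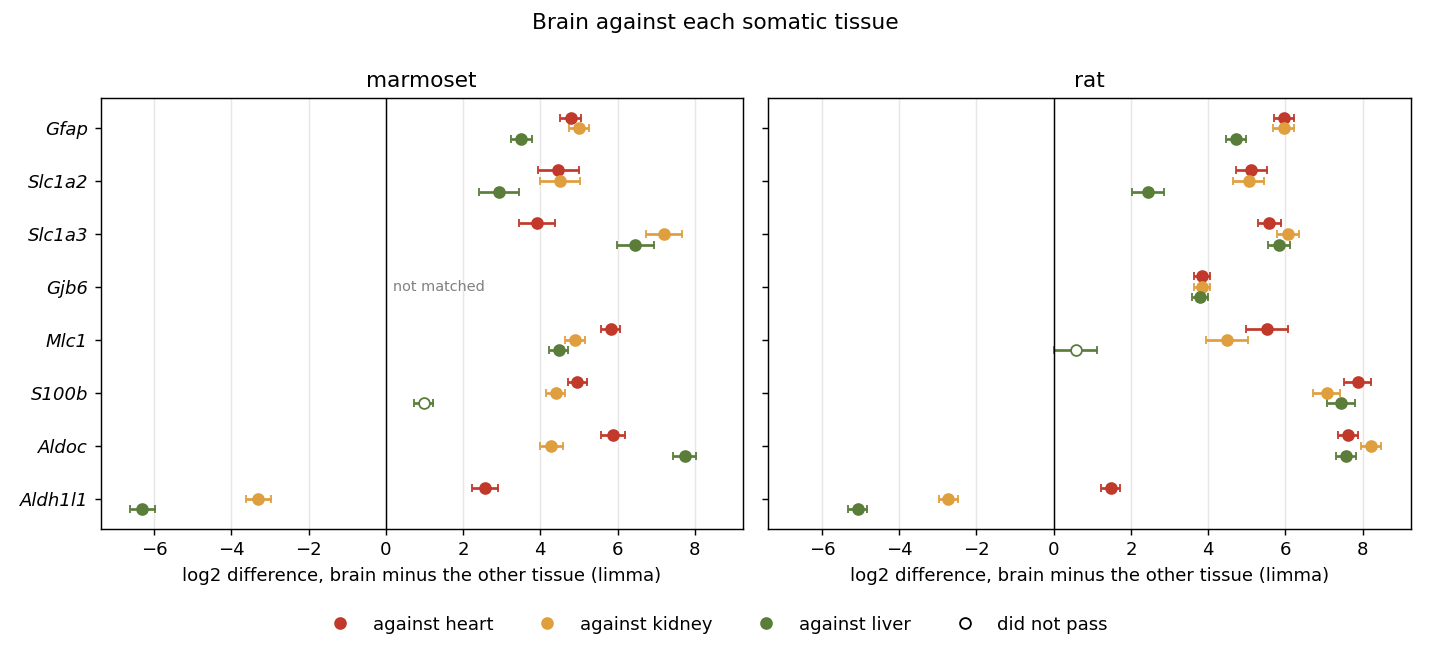
Points give the limma log2 difference of brain minus heart, kidney or liver on the horizontal axis for each gene, marmoset on the left and rat on the right, with bars for the SE. Filled points passed, and the open points are marmoset S100B (0.98) and rat Mlc1 (0.57) against liver. Aldh1l1 lies left of 0 against kidney and liver in both species.

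Outside the brain, liver had the most calls as higher. Liver exceeded the mean of heart and kidney for 4 of 7 marmoset genes (16.5% of all genes tested) and 4 of 8 rat genes (15.8%). GFAP, SLC1A2 and ALDH1L1 were called in both species, beside S100B in the marmoset and Mlc1 in the rat, with the limits given above for SLC1A2 and rat Gfap. ALDH1L1 was higher in liver by 5.93 ± 0.28 and 4.45 ± 0.21. ALDOC was lower in marmoset liver, by the difference of -2.66 ± 0.26 (limma adjusted p = 4.36e-04, 13.4% of all genes tested lower). In the rat the value was 0.35 ± 0.22 (adjusted p = 0.250), and none of the 8 genes was called lower in liver. In heart, SLC1A3 in the marmoset was the only higher gene in either species (13.0% of all genes tested in the marmoset). ALDH1L1, S100B and MLC1 were lower in marmoset heart (21.0% of all genes tested), and Slc1a2, Aldh1l1 and Mlc1 in rat heart (18.0%). The rat Slc1a2 heart call (-1.37 ± 0.35) was lost without either heart column (adjusted p = 0.171 and 0.0588), without the male kidney column (0.0512) and with no filter (0.0507). The marmoset MLC1 heart call (-1.14 ± 0.22) missed the fold threshold without the male heart column, at -0.84.

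In kidney, ALDOC and ALDH1L1 were higher in the marmoset (11.9% of all genes tested), and none of the 8 in the rat. SLC1A3 (-2.01 ± 0.41) and S100B (-1.43 ± 0.21) were lower in marmoset kidney (9.85% of all genes tested), and Slc1a2 (-1.26 ± 0.35) in rat kidney (11.7%). The SLC1A3 kidney call was lost without either kidney column (adjusted p = 0.0911 and 0.106), and the S100B kidney call without the male kidney column (0.0559). The rat Slc1a2 kidney call was lost without any 1 of the heart, kidney and liver columns (adjusted p = 0.0602 to 0.269) and with no filter (0.0845). The ALDH1L1 kidney call (1.44 ± 0.28) was lost without either kidney column and without the animal as a block, with adjusted p of 0.142 without the female kidney, 0.0559 without the male kidney and 0.318 without the block.

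Within the brain, levels were ordered as follows. In the marmoset, ALDOC (mean 524 ± 46.4 FPKM, SD, n = 2) was followed by SLC1A3 (174 ± 18.7), MLC1 (72.8 ± 21.4), S100B (65.8 ± 22.2), GFAP (33.6 ± 16.2), SLC1A2 (23.4 ± 11.3) and ALDH1L1 (17.4 ± 8.15). Column ranges overlapped for MLC1 and S100B, for GFAP and SLC1A2, and for SLC1A2 and ALDH1L1, so those neighbours are not ordered beyond their spread. In the rat, Aldoc (480 ± 21.8) was followed by S100b (316 ± 81.5), Slc1a3 (113 ± 28.5), Gfap (66.4 ± 24.7), Mlc1 (46.8 ± 2.48), Slc1a2 (39.2 ± 28.4), Gjb6 (13.7 ± 4.57) and Aldh1l1 (1.91 ± 0.110). There, only Slc1a2 overlapped its neighbours, with Mlc1 and Gfap inside or across its range of 19.1 to 59.2. FPKM is scaled to transcript length, so these are levels per length.

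The largest ratio between the brain columns was that of Slc1a2 in both species, whose female column was 3.10 times the male one in the rat and 2.04 times in the marmoset. GFAP was 2.03 times higher in the male than in the female marmoset. With 1 animal of each sex, and with the part of the brain in each column not known, sex, animal and dissection cannot be told apart.

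A wider list of 40 further astrocyte genes was described in the same fit. In all, 24 of 34 marmoset table entries and 31 of 38 rat genes tested were called higher in brain. Over all genes tested in the tables the shares were 17.0% and 17.6%. Of the listed genes tested, 13 and 16 reached the filter only with their brain columns. Of the rest, 12 of 21 marmoset genes were higher and 3 lower (median 1.34), and 16 of 22 rat genes were higher and 1 lower (median 1.94). Among those with large differences were the sodium pump subunit ATP1B2 (5.89 ± 0.28) in the marmoset and the metallothionein Mt3 (6.69 ± 0.57) and Ttyh1 (5.91 ± 0.25) in the rat. Cystathionine beta-synthase, CBS, was lower in both, at -2.91 ± 0.46 and -1.69 ± 0.19. CST3 (-1.29 ± 0.45) and PLA2G7 (-1.03 ± 0.25) were lower in the marmoset, whereas Cst3 (1.41 ± 0.34) and Pla2g7 (2.57 ± 0.24) were higher in the rat. Leaving out either brain column lowered the counts of listed genes called higher in both species. Fewer of the listed genes then passed the filter, and brain was left with 1 column. Some of these genes are also expressed by neurons or in peripheral tissues, and several stand on the other lists here as well.

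**Figure D4:**
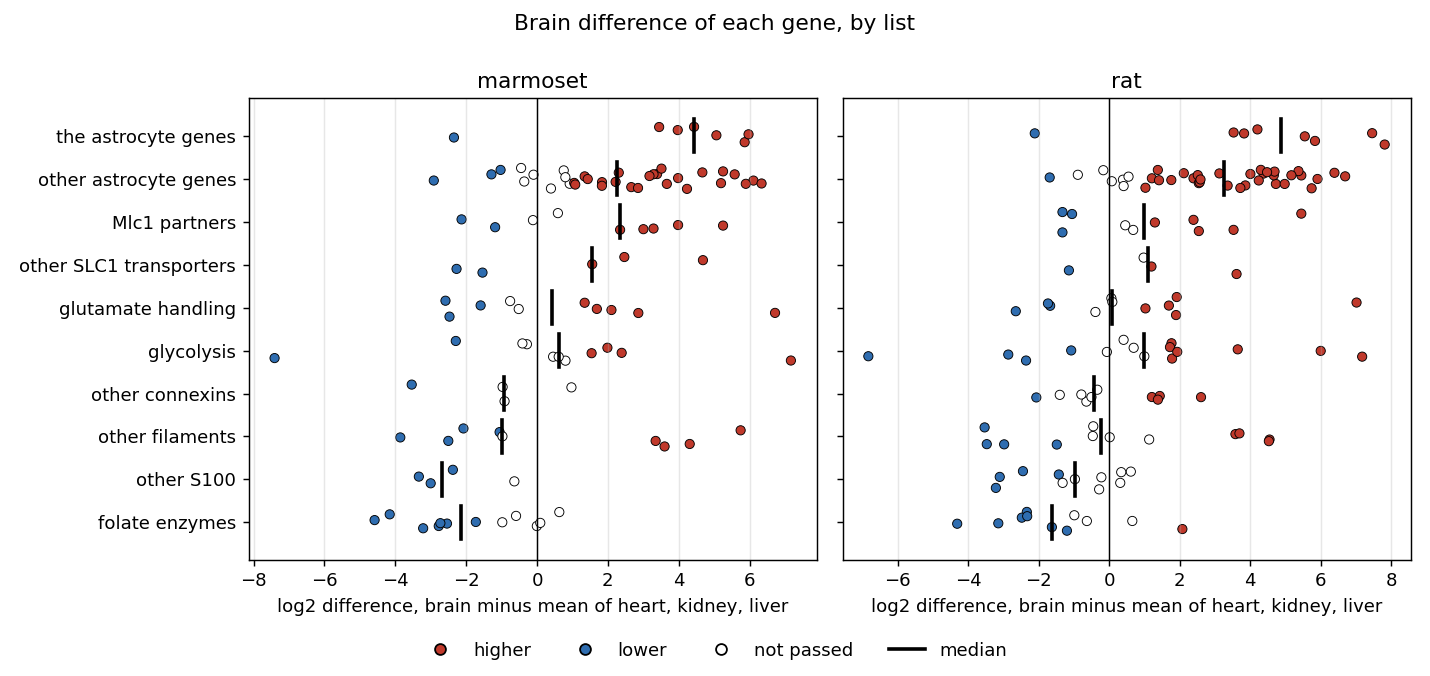
Each point is the limma log2 difference of brain minus the mean of heart, kidney and liver for 1 table entry (horizontal axis), by gene list, marmoset on the left and rat on the right. Red points passed as higher, blue as lower, open points did not pass, and black bars are medians over all points, genes admitted by their brain columns included, which run from 4.43 for the astrocyte genes to -2.69 for other S100 genes in the marmoset.

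The genes most like each astrocyte gene in pattern were found by the mean absolute difference of log2(FPKM + 1) over all 10 columns. For marmoset GFAP the nearest named gene was TTC9B (0.289). For rat Gfap, Omg (0.294), a myelin glycoprotein, and Nrsn1 (0.302) were among the 3 nearest. For SLC1A2 it was ACTL6B (0.349) in the marmoset and Atp2b2 (0.554) in the rat. For SLC1A3 they were CAMK2A (0.636) and Dlg4 (0.357), and for ALDOC NRGN (0.923) and Eno2 (0.728), all known from neurons. Rat Gjb6 was nearest to Nfasc (0.0659) and Nxph1 (0.0671). For genes that are near 0 outside the brain, the measure follows little more than brain level.

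The genes with liver expression had other neighbours. Marmoset S100B was nearest to CHN2 (0.602), SYBU (0.716) and SHF (0.738), whose female and male liver levels were 15.3 and 18.8, 17.9 and 52.0, and 21.4 and 35.6 FPKM. Rat Mlc1 was nearest to Sez6 (0.745), Fabp7 (0.773) and St8sia3 (0.870). Fabp7, the brain fatty acid binding protein of radial glia and astrocytes, was at 60.1 and 21.3 FPKM in rat brain. It was at 46.7 and 138 in rat liver, and the male liver was the highest column for it as it was for Mlc1. Neighbours were picked on these same columns, so a shared liver level follows from the choice and nothing further is read from it. Marmoset MLC1 was nearest to NGEF (0.384). ALDH1L1 was nearest to the liver enzymes KHK (0.717), a fructose kinase, and ASS1 (0.898), of the urea cycle, in the marmoset, and to Pygl (0.465), liver glycogen phosphorylase, in the rat.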

How the data were processed

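The authors deposited 1 table of FPKM values per species. The submitters' processing notes name the aligner TopHat 1.4.0 and the quantifier Cufflinks 2.0.0. Per the file names the deposited values are normalized. By which method, and on which build and annotation, is not given in the sources used here. Columns were matched to samples by tissue and sex, and 8 wallaby columns that match no sample here were not used. Tables carry no counts, so the read depth is unknown and an exact 0 can be a failed estimate. Marmoset names were completed by Ensembl ID from a name table.

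From these FPKM, log2(FPKM + 1) was fitted by limma (version 3.58.1, R 4.3.3) with its trend option, over the 8 brain, heart, kidney and liver columns of each species. A gene was tested if 2 or more columns reached 1 FPKM, which kept all measured astrocyte genes. Adjusted p-values are Benjamini-Hochberg over all genes tested, with calls at 0.05 and a log2 change of 1. The animal was a block, because the labels give the columns of each sex as individual 1. Deviations of same-sex columns correlated at 0.541 to 0.716 in the marmoset and 0.143 to 0.506 in the rat over 6 tissue pairs. On simulated data, the fit recovered 46% of log2 changes of 2 and 73% of 4 in the marmoset, and 64% and 93% in the rat. The simulated columns had independent noise, no animal effect and no tissue differences beyond the added ones. These rates may therefore not hold for the real columns. Ovary and testis have 1 column each and no test.

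All astrocyte genes are named. From each list, the 3 largest brain differences past the threshold were picked, with list genes above their astrocyte gene in some tissue given as counts or by name, and the 3 genes nearest in pattern were found and some of them named. A few of the genes this rule picks are not reported here. Members and lists were chosen with earlier results of these data known. Alternatives were another pseudocount (0.1), no filter, no block, median centring, no trend and leaving out each column.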

Additional observations from a re-analysis of the deposited data

Results flagged for a closer look

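Aldoc had opposite orders of tissues outside the brain in the marmoset and the rat. Heart minus kidney, as a difference of mean log2(FPKM + 1), was -1.59 in the marmoset and 0.59 in the rat. Kidney minus liver was 3.46 in the marmoset and -0.64 in the rat. In each species both the female and the male animal moved in that species' direction. The difference was not tested, since the tables were normalised separately. The rat levels behind it were low, between 0.542 and 2.38 FPKM in heart, kidney and liver.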

How the results depend on the processing

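Counting those admitted by their brain columns, 6 marmoset astrocyte genes were higher in brain under all 13 alternatives. In the rat 7 were under every alternative except leaving out a brain column, where Gjb6 was not tested (range 6 to 7). Every astrocyte gene tested kept its direction and call in that contrast in every alternative run. Leaving out columns gave 10 to 24 further astrocyte genes higher in the marmoset and 15 to 31 in the rat, and 1689 to 2616 and 1546 to 2580 genes over the whole tables. Fewer genes pass the filter with 1 brain column, and the lone column is then assumed to vary like the others. Without the replicate block, 2369 marmoset and 2525 rat genes were higher, against 2568 and 2567 with it, and 6 and 7 astrocyte genes. Dropping the block ended no astrocyte gene call beyond those given above for marmoset ALDH1L1 and SLC1A2 and, in the rat, Slc1a2 in kidney (-1.26, adjusted p = 0.0598). Over the other tissue contrasts, 28 of 1158 values of the astrocyte genes lost a call and 21 gained one, over 11 genes counted per species. Among them were ALDH1L1 in marmoset kidney, S100B against marmoset liver and Slc1a2 in rat kidney. No result reversed. Read depth is unknown, and 2 columns per tissue limit what can be called.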

Other observations

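The wallaby, a marsupial, has a male liver and a male testis column, and 5 of the astrocyte genes were found there. ALDH1L1 was at 274 FPKM in liver and 0.194 in testis. MLC1 was at 0.956 FPKM in liver and 31.2 in testis, whereas the marmoset and rat testis columns were at 0.154 and 1.59 FPKM. SLC1A3 was listed at 0 in liver and was at 1.49 FPKM in testis, and SLC1A2 was at 0.0939 and 0.736. GFAP was listed at 0 in liver and was at 0.544 in testis. There is 1 animal per tissue, so no spread can be given, and the tables of the 3 species were normalised separately.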
